A study of Mus musculus with 4 samples.

Results

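Cholesterol homeostasis was described here in HL-1 cells, an immortalised mouse line of atrial origin whose cells contract in the dish. The set held 29 genes of cholesterol synthesis, its SREBP regulators, sterol uptake and transport, and efflux, out of 18193 genes that the arrays measured with a probe set of 1 gene symbol. A probe set is a group of short probes for 1 transcript. Members were all probe sets annotated to exactly 1 of these symbols, which gave 64 probe sets of 34945 and 28 genes; Acat2 is not analysed here. In 2 samples, stimulated 1 and 2, the cells were paced electrically for 24 h at 300 beats per minute, about 1.5 to 2 times the rate of the controls. In the other 2 samples, control 1 and 2, the cells contracted spontaneously without stimulation. All were grown in supplemented Claycomb medium on coverslips coated with gelatin and fibronectin. No sample was paced at the control rate, so an effect of rate cannot be told apart from one of the electrical field. The labels do not state whether replicates were separate cultures. The p-values therefore rest on the spread of these 4 samples, part or all of which may be technical.

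Cells build cholesterol from acetyl-CoA through mevalonate, isoprenoid diphosphates, squalene and a series of sterol intermediates. SREBP transcription factors switch on these enzymes when membrane sterol is low: the escort protein SCAP carries SREBP out of the endoplasmic reticulum, and INSIG proteins hold it back when sterol is high. Cholesterol taken up with lipoproteins leaves the lysosome through NPC1 and NPC2, and surplus is exported by ABCA1 and ABCG1, whose genes are targets of the oxysterol receptors LXR. In muscle cells, cholesterol is a main lipid of the surface membrane, its caveolae and T-tubules.

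All 28 genes passed the filter on low values, a mean of 4.39 on the log2 scale, so that none was left out of the test. With limma and Benjamini-Hochberg adjustment over 13058 genes at a threshold of 0.05, 2 of the 28 genes were lower in stimulated cells, Nsdhl and Stard4, which is 7.14% of them, where 1.62% of all genes tested were called lower. None of the 28 was called higher by limma, where 3.91% of all genes were, and 0 were higher at an unadjusted p under 0.05, where 13.9% of all genes were. The mean was lower in stimulated cells for 27 of 28 genes, against 50.9% of all genes. Both stimulated arrays lay below both control arrays for 20 of 28 genes, where this held for 27.7% of all genes, and in the other 8 the groups overlapped. The median change, stimulated minus control, was -0.40 over the 28 genes and -0.0056 over all genes tested. An unadjusted p under 0.05 with a lower level was found for 16 of the 28, and for 11.7% of all genes. The set thus showed differences mostly in 1 direction, with few single genes past the adjusted threshold.

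**Figure D1:**
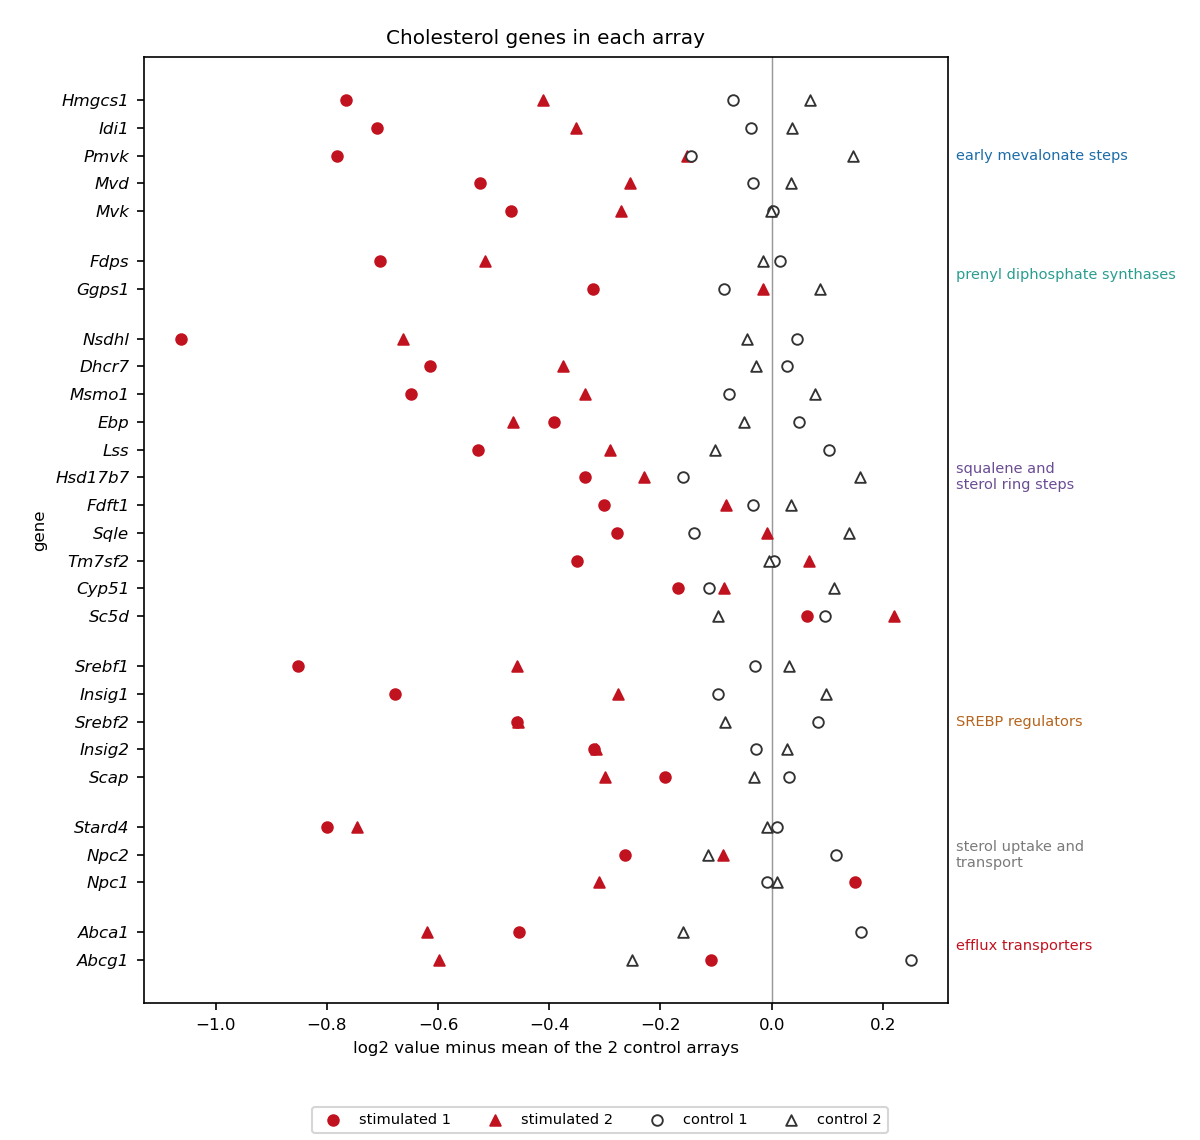
Level of each cholesterol gene in each array, as the log2 value minus the mean of the 2 control arrays, with stimulated arrays as filled and control arrays as open symbols. Both stimulated symbols lie left of both control symbols in 20 of the 28 genes.

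The 2 stimulated arrays differed from each other in this set. Stimulated 1 read below stimulated 2 in 23 of 28 genes, against 46.0% of all genes, and the median difference from the control mean was -0.46 on stimulated 1 and -0.31 on stimulated 2. Both efflux genes went the other way, with stimulated 2 the lower array.

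The early enzymes carry acetyl groups to the 5-carbon isoprenoid units. All 5 measured genes had a lower mean in stimulated cells, with a median change of -0.47. In all 5 both stimulated arrays lay below both controls, as in 27.7% of all genes tested. None passed limma's adjusted test, and 4 had an unadjusted p under 0.05, where 11.7% of all genes were lower at that p. Hmgcs1, whose enzyme joins acetyl units to make the precursor of mevalonate, read 10.14 and 10.49 in stimulated cells and 10.83 and 10.97 in control cells, a change of -0.59 ± 0.16 (SE of the fit, n = 2 each; limma adjusted p = 0.0890). Its other probe sets past the filter changed by -0.66, -0.38 and -0.18, and in the last of these the groups overlapped. Idi1, the isomerase that activates the isoprenoid unit, read 9.10 and 9.46 in stimulated cells and 9.78 and 9.85 in control cells (change -0.53 ± 0.16, limma adjusted p = 0.106). Its second probe set changed by only -0.09, with overlapping groups, so the Idi1 result depends on the probe set. The kinase genes Mvk and Pmvk and the decarboxylase gene Mvd changed by -0.37, -0.47 and -0.39. Pmvk varied most between replicates, at 7.86 and 8.48 in stimulated cells and 8.49 and 8.78 in control cells, and its stimulated 2 value lay only just below control 1.

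The next enzymes make the prenyl diphosphates that feed both sterols and protein prenylation. Fdps, farnesyl diphosphate synthase, read 11.08 and 11.27 in stimulated cells and 11.80 and 11.77 in control cells. Its change of -0.61 ± 0.13 missed the threshold (limma adjusted p = 0.0540). Fdps was called in 4 of 12 alternatives. These were the stricter filter at the 60th percentile (limma adjusted p = 0.0428), a variance trend (0.0339) and a replicate block (0.0444). The last was centring on the median of the genes tested (0.0405), chosen after seeing the data. It was not called with each array centred on its median (limma adjusted p = 0.0639), without the filter (0.0594) or over probe sets (0.0614). The mean of its probe sets changed by -0.39 (limma adjusted p = 0.0911). That mean includes a second probe set below the filter level, at 2.98 and 3.04 in stimulated cells and 3.12 and 3.22 in control cells. With 1 array left out the change on the probe set used lay between -0.70 and -0.52. Ggps1, which makes the longer geranylgeranyl diphosphate, read 7.55 and 7.85 in stimulated cells and 7.78 and 7.96 in control cells, and its groups overlapped. Its change was -0.17, with a 95% interval from -0.55 to 0.21, and its other probe sets changed by -0.39 to 0.02.

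Among the 11 genes from squalene to cholesterol, 10 had a lower mean in stimulated cells, 1 was called lower by limma and 0 were higher even at an unadjusted p under 0.05, and the median change was -0.28. Nsdhl, a sterol dehydrogenase that helps to strip methyl groups from the ring, read 8.69 and 9.09 in stimulated cells and 9.80 and 9.71 in control cells. Both stimulated arrays were clearly lower, by 0.86 ± 0.17, or 55.0% of the control level (change -0.86, limma adjusted p = 0.0448). The call was close to the threshold: it was lost with each array centred on its median (adjusted p = 0.0509) and with any 1 array left out, with limma adjusted p of 0.139 when stimulated 1 was dropped, 0.0560 for stimulated 2, 0.192 for control 1 and 0.189 for control 2. The change itself stayed between -1.06 and -0.66 in those 4 fits.

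The steps other than Nsdhl were uneven. Msmo1, the monooxygenase that acts just before Nsdhl, changed by -0.49, and Hsd17b7, the reductase that follows Nsdhl, by -0.28. Dhcr7, which makes the final reduction to cholesterol, read 8.13 and 8.37 in stimulated cells and 8.77 and 8.71 in control cells (change -0.50 ± 0.14, limma adjusted p = 0.0925). Ebp, the sterol isomerase, read 10.20 and 10.12 in stimulated cells and 10.64 and 10.54 in control cells (change -0.43 ± 0.12, limma adjusted p = 0.0979). Lss, which closes the sterol ring, changed by -0.41, but by -0.62 and -0.0035 on its other probe sets. None of these 5 genes passed the test, and on the probe sets used both stimulated arrays lay below both controls in all 5. Over all 11 genes from squalene to cholesterol this held for 7, and in the other 4 the groups overlapped. It held for 27.7% of all genes tested. For Hsd17b7 the probe set used is of a type that may also bind other transcripts. Its other probe sets past the filter changed by 0.03 and -0.16 with overlapping groups. The mean of all its probe sets, also that below the filter level, changed by -0.12.

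Other steps of the same stretch showed small differences. Sqle, squalene epoxidase and a rate-controlling step, read 10.16 and 10.43 in stimulated cells and 10.30 and 10.57 in control cells, so the groups overlapped. Its change was -0.14, with a 95% interval from -0.54 to 0.26. Cyp51, the lanosterol demethylase, changed by -0.13 (interval -0.46 to 0.21), with -0.02 and 0.22 on its other probe sets. Fdft1, squalene synthase, changed by -0.19 on a probe set of a type that may also bind other transcripts. It also changed by -0.19 on a second probe set, not of that type, and neither showed overlap. The remaining Fdft1 probe sets changed by -0.23 and -0.11 with overlap. The sterol reductase gene Tm7sf2 changed by -0.14. Sc5d, a sterol desaturase, was the 1 member with a higher mean on the probe sets used. It read 8.99 and 9.15 in stimulated cells and 9.03 and 8.83 in control cells (change 0.14, interval -0.20 to 0.48, limma adjusted p = 0.593). Its other probe sets changed by 0.10 and -0.07, both with overlap. With the probe sets of a gene averaged, 2 members had a higher mean, Sc5d and Cyp51 (0.026). Whether Sqle, Cyp51, Fdft1, Tm7sf2 and Sc5d differ from Nsdhl or Hmgcs1 in their response was not tested.

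**Figure D2:**
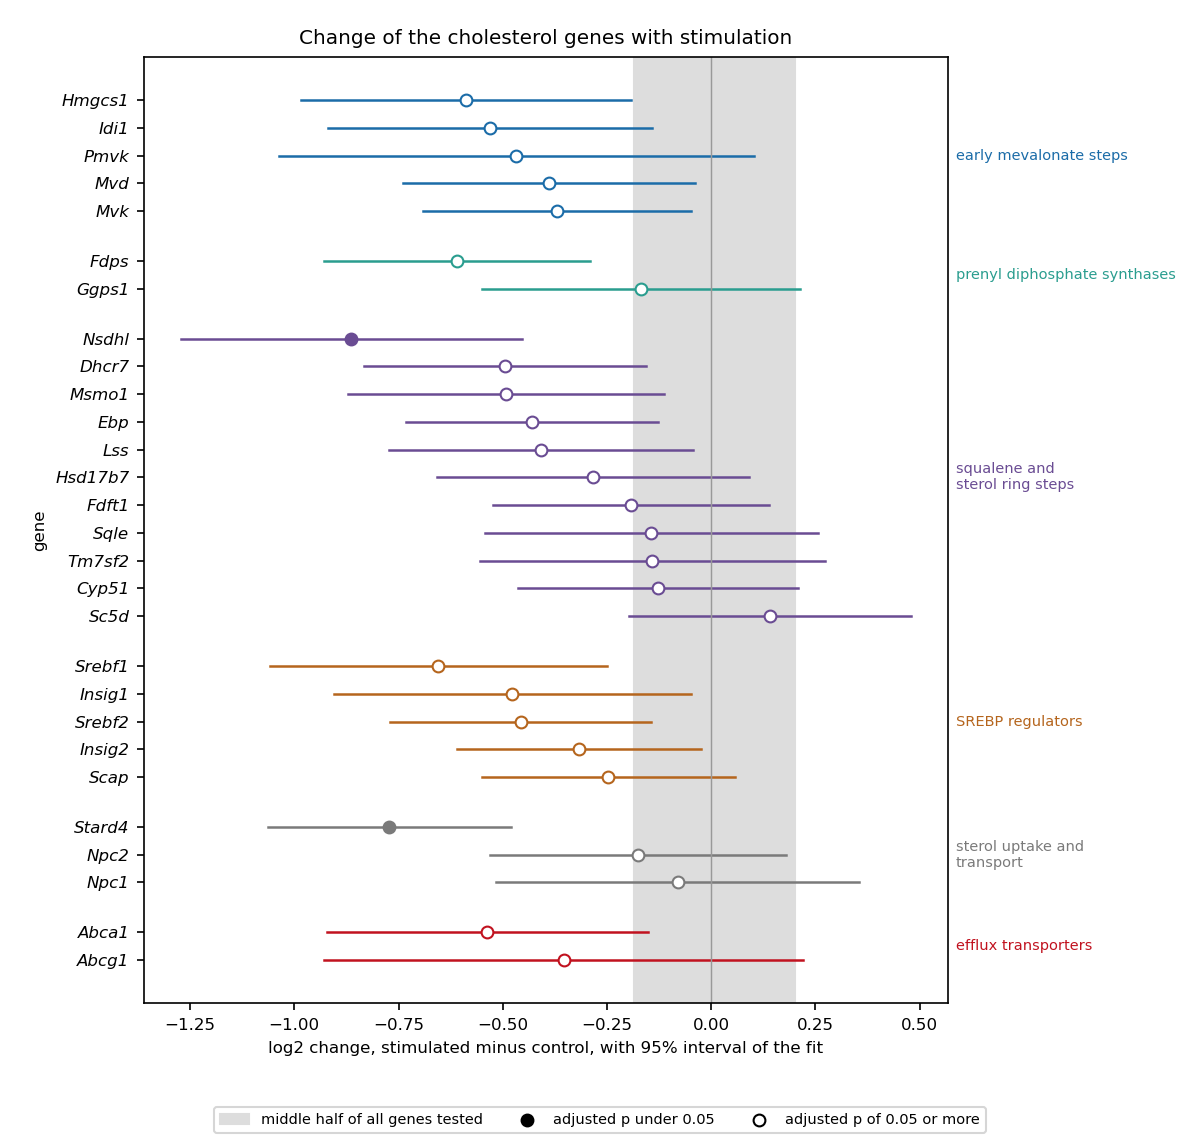
Log2 change of each cholesterol gene, stimulated minus control, with the 95% interval of the limma fit, ordered by role and size; filled points passed the test over all genes, and the grey band runs from the lower to the upper quartile of all genes tested. Nsdhl (-0.86) and Stard4 (-0.77) are the filled points, and Sc5d (0.14) is the only point right of 0.

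The genes of SREBP control had lower means in stimulated cells, as most enzymes did. On the probe sets used, all 5 had a lower mean in stimulated cells with groups that did not overlap, as in 27.7% of all genes tested. The median change was -0.46, and 0 passed limma's adjusted test. An unadjusted p under 0.05 was found for 4, where 11.7% of all genes were lower at that p. Srebf1, which encodes the SREBP form best known for fatty acid synthesis, read 9.28 and 9.67 in stimulated cells and 10.10 and 10.16 in control cells (change -0.65 ± 0.17, limma adjusted p = 0.0755). Srebf2, which encodes the form that mainly drives sterol genes, read 8.59 on both stimulated arrays and 9.13 and 8.96 on the control arrays (change -0.46 ± 0.13, limma adjusted p = 0.0927). Its second probe set changed by -0.04 with overlapping groups. Insig1, itself a known SREBP target, read 9.04 and 9.44 in stimulated cells and 9.62 and 9.81 in control cells (change -0.48 ± 0.17, limma adjusted p = 0.161). Insig2, its paralog, read 8.83 on both stimulated arrays and 9.12 and 9.17 on the control arrays (change -0.32 ± 0.12, limma adjusted p = 0.168). The other Insig2 probe sets changed by -0.37 without overlap and by -0.14 with overlapping groups. Scap changed by -0.25 (interval -0.55 to 0.06).

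Stard4, a soluble sterol carrier that moves cholesterol between membranes and is a known SREBP target, gave the smallest p of the set with 1 probe set per gene. Over probe sets, a pair of Abca1 probe sets had smaller p. It read 8.38 and 8.43 in stimulated cells and 9.19 and 9.17 in control cells, so that the replicates of each group were close and the groups far apart. The change was -0.77 ± 0.12, or 58.6% of the control level (limma adjusted p = 0.0307). The remaining Stard4 probe sets gave changes of -0.64 and -0.54 without overlap, with adjusted p of 0.0556 and 0.0874 over probe sets. With 1 array left out the change stayed between -0.80 and -0.75, but the call was lost, with limma adjusted p of 0.116 when stimulated 1 was dropped, 0.0707 for stimulated 2, 0.157 for control 1 and 0.173 for control 2. Neither lysosomal gene passed the test. Npc2 read 10.42 and 10.59 in stimulated cells and 10.80 and 10.57 in control cells, a change of -0.18 with overlapping groups. A second Npc2 probe set read 9.93 and 10.07 in stimulated cells and 10.32 and 10.40 in control cells, a change of -0.36 without overlap (limma adjusted p = 0.163 over probe sets), and another changed by -0.13 with overlap. Npc1 read 5.96 and 5.50 in stimulated cells and 5.80 and 5.82 in control cells, with 1 stimulated array above and 1 below both controls. Its change was -0.08, with an interval from -0.52 to 0.36.

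The efflux genes were also lower in mean, and for Abca1 the size depended on the probe set. Abca1, the exporter that loads cholesterol onto apolipoproteins, read 9.38 and 9.22 in stimulated cells and 9.99 and 9.68 in control cells on its probe set with the highest mean (change -0.54 ± 0.16, limma adjusted p = 0.102). On a second probe set Abca1 read 6.51 and 6.21 in stimulated cells and 7.56 and 7.53 in control cells, a change of -1.19 ± 0.15. On the third it read 4.96 and 4.43 in stimulated cells and 6.21 and 6.08 in control cells, a change of -1.45 ± 0.20. With every probe set as its own feature, over 23284 probe sets, both of these passed (limma adjusted p = 0.0237 and 0.0266), and the first did not. In that fit 4 of the 58 cholesterol probe sets past the filter were called lower, those of Nsdhl and Stard4 included, where 1.86% of all probe sets were. None of the 58 was called higher by limma, where 2.99% were, and 0 were higher at an unadjusted p under 0.05, while 53 of 58 had a lower mean in stimulated cells, against 53.0% of all probe sets. With the mean of all its probe sets Abca1 was called lower, by 1.06 (limma adjusted p = 0.0237). Abcg1, the partner exporter to lipoprotein particles, read 7.64 and 7.15 in stimulated cells and 8.0 and 7.50 in control cells. Its groups overlapped (change -0.35, interval -0.93 to 0.22). A second Abcg1 probe set changed by -0.18 without overlap (limma adjusted p = 0.487 over probe sets).

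**Figure D3:**
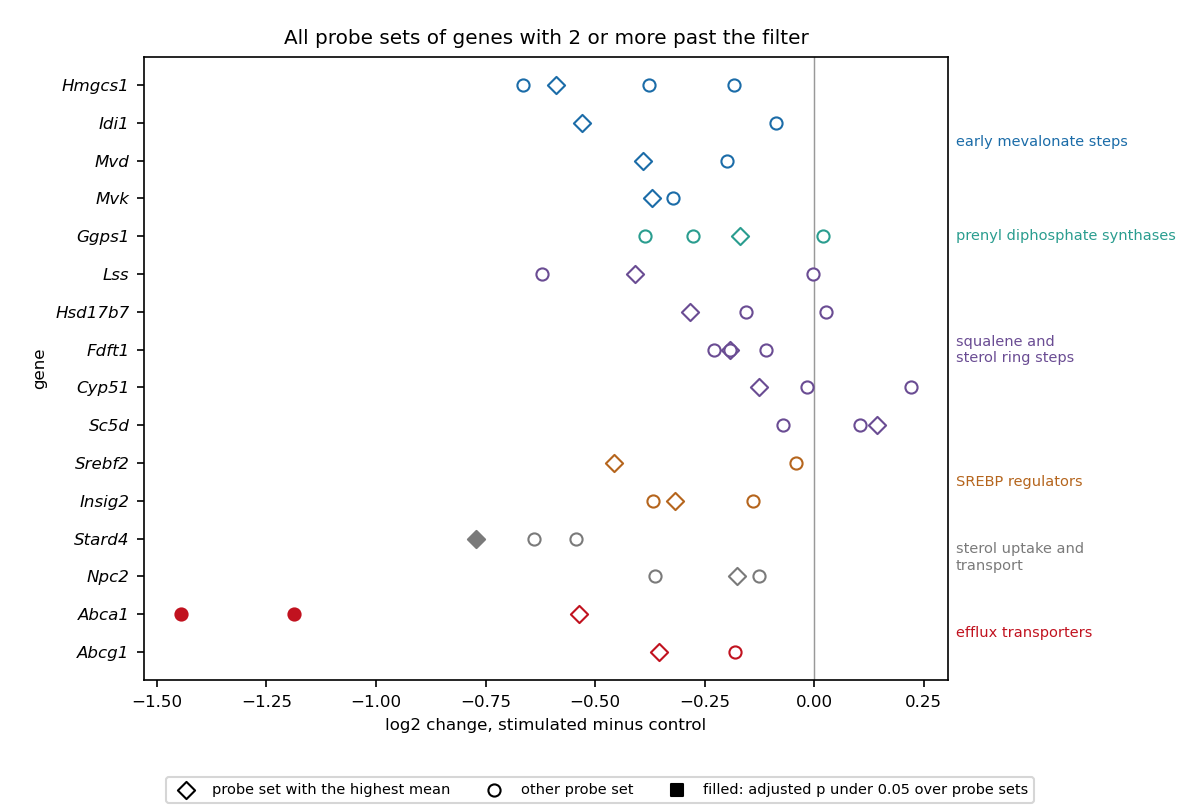
Log2 change, stimulated minus control, of every probe set past the filter for the 16 cholesterol genes that have 2 or more; diamonds are the probe sets used for the gene and filled symbols passed the test over all probe sets. The Abca1 probe sets spread from -1.45 to -0.54, and the 3 of Stard4 from -0.77 to -0.54.

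By role, the median changes were -0.47 for the early mevalonate steps, -0.39 for the pair of prenyl synthases, -0.28 for the squalene and sterol ring steps, -0.46 for the SREBP regulators, -0.18 for uptake and transport and -0.45 for the pair of efflux genes. Differences between roles were not tested. Several of these medians moved with single arrays: uptake and transport was -0.09 without control 1, -0.31 without stimulated 1, -0.26 without stimulated 2 and -0.29 without control 2. Efflux was -0.24 without control 1, -0.28 without stimulated 2, -0.61 without stimulated 1 and -0.65 without control 2. The ring steps were -0.16 without control 2. The early mevalonate steps were -0.27 without stimulated 1 and -0.71 without stimulated 2. With every probe set separate, uptake and transport was -0.36 and the ring steps were -0.15. When the probe sets of a gene were averaged, the ring steps were -0.18 and the regulators -0.27. The stricter filter, which left out Npc1, gave -0.47 for uptake and transport. Leaving out an array moved the median of all 28 genes to between -0.46 and -0.31, and it was -0.30 with the mean of all probe sets of a gene.

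The promoters of 3 members are shown because the members' means differed mostly in 1 direction and are known to share regulators. In the cell, SREBP binds a sterol regulatory element together with NF-Y, which binds CCAAT boxes, and with Sp1. RefSeq windows of GRCm38.p6, from 250 bases before to 50 after each gene's start, matched 22 of the 28 genes with 30 windows. In the windows, which run 5′ to 3′ on the gene's strand, capitals mark CCAAT on either strand and the sterol regulatory element core TCACNCCAC. Nsdhl, called lower, lies at chrX:72918271-72918570 on the plus strand, Hmgcs1, the first enzyme measured, at chr13:119690101-119690400 on the plus strand, and Abca1, the exporter, at chr4:53159846-53160145 on the minus strand.
Nsdhl: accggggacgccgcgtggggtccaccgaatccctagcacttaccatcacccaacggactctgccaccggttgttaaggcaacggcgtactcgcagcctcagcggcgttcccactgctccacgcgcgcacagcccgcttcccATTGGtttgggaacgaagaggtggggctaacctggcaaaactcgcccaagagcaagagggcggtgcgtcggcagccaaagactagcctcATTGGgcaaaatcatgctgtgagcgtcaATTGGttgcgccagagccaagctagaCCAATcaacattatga
Hmgcs1: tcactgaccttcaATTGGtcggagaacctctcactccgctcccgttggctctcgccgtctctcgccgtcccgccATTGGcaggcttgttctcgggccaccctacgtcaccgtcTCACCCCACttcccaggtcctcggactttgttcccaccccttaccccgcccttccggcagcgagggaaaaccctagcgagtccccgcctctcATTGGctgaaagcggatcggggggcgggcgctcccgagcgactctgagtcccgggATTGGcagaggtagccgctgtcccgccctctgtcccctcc
Abca1: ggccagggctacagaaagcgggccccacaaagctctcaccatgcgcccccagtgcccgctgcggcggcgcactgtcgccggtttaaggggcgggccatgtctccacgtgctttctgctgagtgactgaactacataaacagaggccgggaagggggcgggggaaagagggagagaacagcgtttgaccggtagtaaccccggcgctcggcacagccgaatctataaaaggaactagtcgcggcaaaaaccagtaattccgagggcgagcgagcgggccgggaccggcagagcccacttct

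The Nsdhl window held 4 CCAAT matches and no sterol element core, the Hmgcs1 window 4 CCAAT matches and 1 core match, TCACCCCAC, and the Abca1 window neither. Over all member windows, 21 of 30 (70.0%) held CCAAT, against 37.7% of the 13447 windows of genes tested and 37.4% of all 32851 windows. All 9 measured ring-step genes with a window held one, in 9 of 11 windows, and so did all 5 early mevalonate genes, in 5 of 6 windows. By genes, 4524 of 10546 tested genes with a window held one. A gene with several windows has more chances of a match. The Sp1 box GGGCGG stood in 24 of 30 windows (80.0%), against 59.8% of those of genes tested. The core TCACNCCAC stood in 1 of 30 windows, that of Hmgcs1, against 1.19%. Only this pattern was searched, so a variant element, or one outside the windows, would be missed. Both strands were searched, and matches of different motifs overlapped 0 times in these windows. Genes with the box did not all have lower levels to the same degree: the windows of Cyp51 and Sc5d, with changes of -0.13 and 0.14, each held 1 CCAAT match. A match is a description of the letters and shows no binding in these cells.

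**Figure D4:**
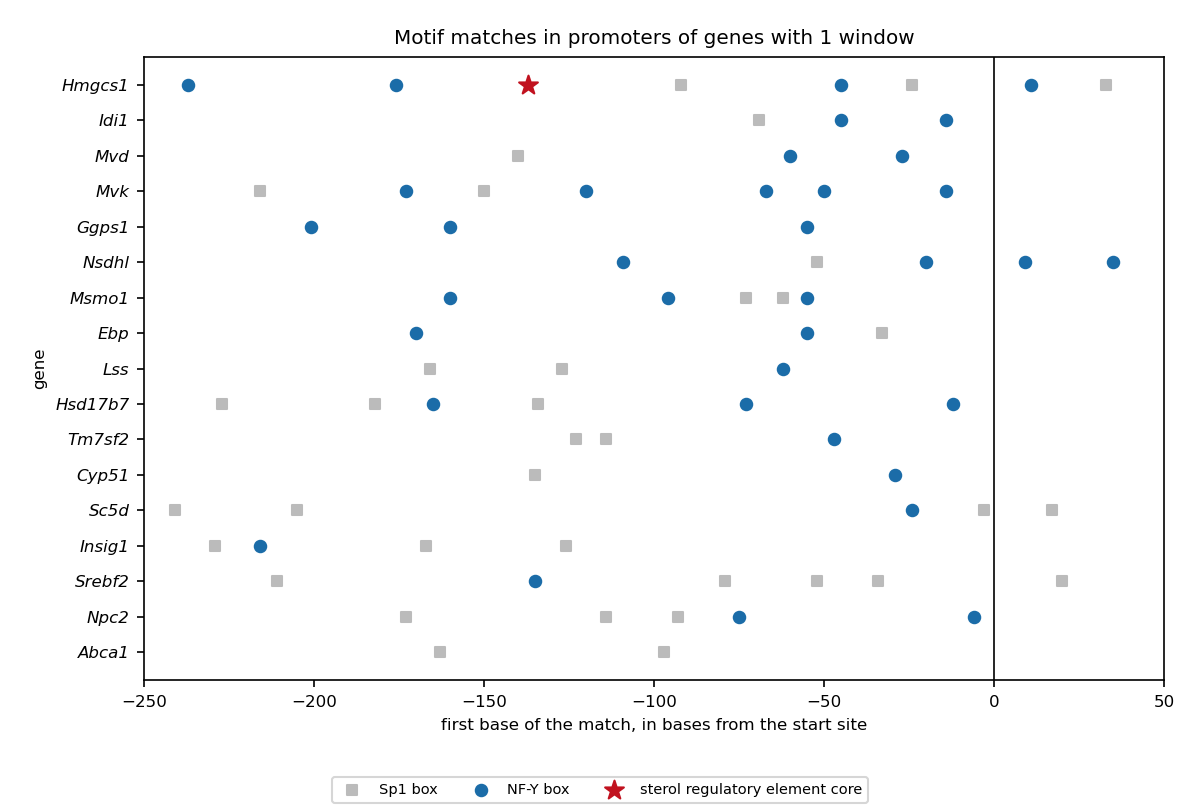
Matches to 3 motifs in the promoters of the 17 measured cholesterol genes with exactly 1 window, by distance in bases from the start site at 0. Hmgcs1 has the single sterol element core and Mvk has 5 NF-Y boxes, while Abca1 has only Sp1 boxes.

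Other genes of the pathway, in 5 lists with 85 genes of which 71 were tested, showed 2 called lower and 1 called higher, with a median change of -0.07. Over all genes tested 1.62% were called lower and 3.91% higher. The list named for fatty acid synthesis under SREBP had the lowest median, -0.28, with 15 of 17 genes lower in mean and 2 called. It also held lipid genes outside fatty acid synthesis: Tmem97 (-0.58), Pnpla3 (-0.61), Lpin1 (-0.37) and Aacs (-0.07), with changes in parentheses. Of these, Tmem97, Pnpla3 and Lpin1 had an unadjusted limma p under 0.05. Scd2, a desaturase that makes monounsaturated fatty acids, read 11.36 and 11.75 in stimulated cells and 12.44 and 12.37 in control cells (change -0.85 ± 0.16, limma adjusted p = 0.0449). On the other Scd2 probe sets the changes were -1.44 and -2.0, and both passed over probe sets (limma adjusted p = 0.0219 and 0.00515). Fads2, a desaturase of polyunsaturated fatty acids, read 9.80 and 9.97 in stimulated cells and 10.64 and 10.61 in control cells (change -0.74 ± 0.13, limma adjusted p = 0.0373).

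In the list of SREBP processing and sterol-regulated degradation, 1 of 11 genes was called. Ube2g2, a ubiquitin-conjugating enzyme of endoplasmic reticulum degradation, was higher, at 9.53 and 10.09 in stimulated cells and 8.70 and 8.76 in control cells (change 1.08 ± 0.20, limma adjusted p = 0.0419). Its second probe set changed by 0.79 and did not pass (limma adjusted p = 0.0986 over probe sets). Erlin1 and Erlin2, partners that help to mark sterol-regulated proteins for that degradation, differed in opposite directions, by 0.81 and -0.57 (limma adjusted p = 0.0566 and 0.0535). Mbtps1, a protease that cleaves SREBP, changed by -0.26 on its probe set with the highest mean (limma adjusted p = 0.290), by -0.88 on a second that passed over probe sets (limma adjusted p = 0.0312) and by -0.11 on another. Erlin1 and Mbtps1 were named after their values were seen. The list's median was -0.0072. None of the 15 genes of the isoprenoid list, 15 other uptake, transport and storage genes or 13 LXR and oxysterol genes was called by limma. The medians of these lists were -0.02, -0.13 and 0.00042. The isoprenoid list also held genes of other steps: Lbr, Acat1 and Erg28 changed by 0.0063, -0.13 and -0.19. Further Acat1 probe sets changed by -0.17 and -0.53 (limma adjusted p = 0.472 and 0.0843 over probe sets). At an unadjusted p under 0.05 the isoprenoid list had 0 lower and 2 higher, the transport list 2 lower and 2 higher, and the LXR list 2 lower and 1 higher. The fatty acid list had 7 lower and 0 higher, and the SREBP processing list 2 lower and 2 higher, where 11.7% of all genes were lower and 13.9% higher at that p. The smallest p in these lists belonged to Rce1 (0.34) and Pggt1b (0.40) of protein prenylation, Plin2 (-0.59) of lipid droplets, the sterol carrier gene Stard5 (0.82), the sterol sulfotransferase gene Sult2b1 (0.72) and the lipase gene Lpl (-0.47), with changes in parentheses. On a second Stard5 probe set the change was 1.56 (limma adjusted p = 0.0498 over probe sets).

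**Figure D5:**
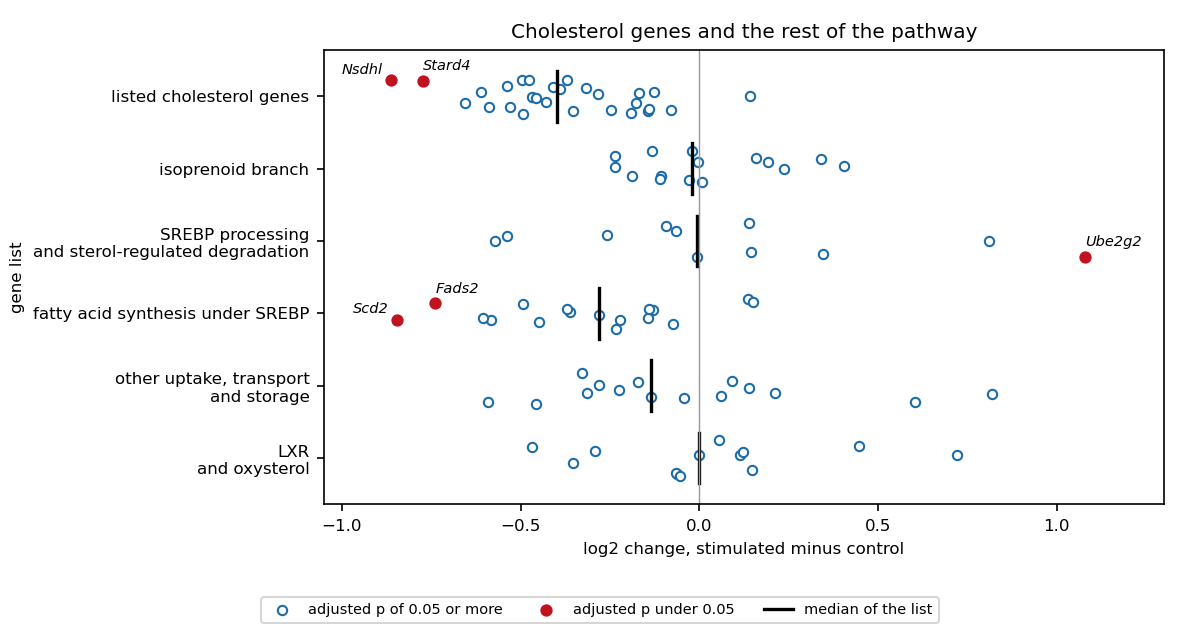
Log2 change, stimulated minus control, of each cholesterol gene (28, top row) and of the tested genes of 5 other pathway lists, with a black bar at each list's median and filled points for genes called over all genes tested. The medians of the cholesterol genes (-0.40) and of the fatty acid synthesis list (-0.28) lie left of 0, and Ube2g2 is the only gene called higher.

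Over the whole table, 722 of 13058 genes were called, and 70.6% of the calls were higher in stimulated cells, or 55.3% of 852 calls with arrays centred on the median of the genes tested. All 12 atrial and cardiac muscle markers were measured past the filter, and the sum of their log2 values was 128.3 on stimulated 1 and 133.9 on stimulated 2, against 137.3 to 139.2 on the control arrays. Nppa, the atrial natriuretic peptide gene, was called higher (2.0) and was the only marker of this list with a higher mean. All its other markers had a lower mean in stimulated cells. For each of these except Actc1, both stimulated arrays lay below both control arrays, as in 27.7% of all genes tested. Gja5, a connexin gene (-2.40), and Ryr2, the calcium release channel gene (-0.85), were called lower. Sln (-1.78), Pln (-1.36) and Myh6 (-1.03) had larger changes than Ryr2 but were not called. Stimulated 1 had the lowest sum, and also the lower median of the cholesterol genes. The endothelial list had 1 of 6 markers past the filter and summed to 24.5 to 24.6 on the stimulated arrays and 24.6 on both control arrays. For fibroblasts 5 of 8 passed, with sums of 35.0 to 36.5 on the stimulated arrays and 35.4 to 37.9 on the control arrays. For leukocytes 3 of 6 passed, with sums of 28.7 to 28.9 on the stimulated arrays and 24.6 to 27.9 on the control arrays. Cd68 was called higher, at 6.34 and 6.59 on the stimulated arrays and 4.07 and 4.70 on the control arrays. It passed the filter only through the stimulated arrays. Csf1r read 7.17 and 7.59 on the stimulated arrays and 5.79 and 7.19 on the control arrays, a change of 0.89 with overlap. Adgre1 changed by -0.32, also with overlap. Ptprc, which marks nearly all leukocytes, lay below the filter level on every array. For smooth muscle 4 of 5 passed, with sums of 47.2 to 48.9 on the stimulated arrays and 46.7 to 48.3 on the control arrays. These sums cover opposite changes without overlap, of Tagln (0.90, limma adjusted p = 0.0884) and Smtn (-0.60, 0.0623), and neither was called. The part of these cell types in the changes of the cholesterol genes was not tested. Fewer cells of a type cannot be told apart from less RNA per cell.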

How the data were processed

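Biotin-labelled material from total RNA of 4 HL-1 samples was measured on Affymetrix arrays, 1 per sample, per the labels' protocols. The authors deposited log2 values per probe set, made with RMA, per the submitters' processing notes; its version and settings are not given in the sources used here. RMA compresses differences near both ends of the scale, and depth does not apply to arrays, so that 2 arrays per group limit the precision. Array medians lay between 4.95 and 5.01.

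Of 45101 probe sets, 64 were controls; 34945 of the others had 1 symbol in the platform annotation, 932 several and 9160 none. All 28 measured member genes were found by gene identifier in a RefSeq table of GRCm38.p6, with 0 symbols updated. A gene was its probe set with 1 symbol and the highest mean; genes with a mean at or above the 40th percentile (4.39) were kept. The groups were tested against each other by the two-sided moderated test of limma (version 3.58.1, run under R 4.3.3), adjusted over 13058 genes; intervals are 95%. The fit was tested on simulated data. With 2 arrays per group, exact permutation p-values start at 0.333, so none was used. Named genes were all members, and for 5 further lists the called genes and the 2 smallest p. Outside this rule, Tmem97, Pnpla3, Lpin1, Aacs, Lbr, Acat1, Erg28, Erlin1 and Mbtps1 were also named. Members and lists were chosen with earlier results of these data known. Alternatives were the filter, the probe set rule, centring, a variance trend, leaving out each array and a replicate block. The mean of all probe sets of a gene includes those below the filter level. Replicate numbers come from the labels for the stimulated samples; for controls a protocol text numbers 1 sample, and the other follows accession order. Some genes of the pathway are not analysed here.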

Additional observations from a re-analysis of the deposited data

How the results depend on the processing

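The count of all genes called was 722, and 1130 with every probe set as its own feature, 1345 with a replicate block and 20 to 113 with 1 array left out. The 2 cholesterol genes called lower became 1 with arrays centred on their median (Stard4), 5 with the replicate block (Fdps, Hmgcs1, Nsdhl, Srebf1 and Stard4) and 0 with any 1 array left out; 0 were called higher under every alternative run. Leaving out an array leaves 3 arrays in the fit, and the lone array of its group is assumed to vary like the other group. The median change of the cholesterol genes was -0.40, -0.30 when probe sets of a gene were averaged, -0.30 with every probe set separate, and -0.46 to -0.31 with 1 array left out. It was negative under all 12 alternatives, but not all of these could change it. Dropping the filter, the variance trend and the replicate block left the same differences of means, so the median stayed at -0.40. Centring moved all genes by the same amount. The centring on the median of the genes tested was chosen after seeing the data. The replicate numbers are not stated to mark a shared culture or day. Over genes, the replicate differences of the groups correlated at 0.33, with only 2 pairs. The cause of these shifts was not tested beyond what fewer arrays or other features bring.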
